A study of Mus musculus with 10 samples.

Results

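Toll-like receptors and NOD-like receptors are the germline-encoded sensors with which cells of the innate immune system recognize microbial products and some products of damaged tissue. They were taken from the gene table as every protein-coding gene whose symbol began with Tlr and a digit, Nlrp, Nlrc, Nlrx or Naip and a digit, or was Nod1 or Nod2, with Nlrc5 left out. The rule found 38 of the 54532 genes in the table, of which 12 were Tlr genes, 17 Nlrp genes, 4 Naip genes, 2 Nlrc genes, 2 Nod genes and 1 was Nlrx1. A mean of at least 0.1 FPKM (fragments scaled by gene length and library size) over all mice was reached by 24 of them, and these were tested. The remaining 14 were below that level, and 9 of these were at 0 in every mouse. The symbol patterns also matched 6 genes that the table does not class as protein-coding, which were not counted.

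The values came from whole lungs of 10 wild-type C57BL/6J mice collected at postnatal day 30 (P30). In 5 mice the abdominal aorta had been joined to the inferior vena cava by a needle puncture at P7, which raises the blood flow through the lungs (increased pulmonary flow, IPF). In the other 5, the sham group, the same operation was done without the puncture. Every mouse therefore shared the anesthesia and the laparotomy, and the comparison of IPF with sham asks how lung expression differs at P30 after flow was raised from P7. Each library held 1 mouse lung, with between 15483046 and 19026843 reads on genes.

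Toll-like receptors are membrane proteins. One set sits at the cell surface and binds lipids, lipoproteins and flagellin, and another set is carried to endosomes and binds nucleic acids or, in mice, profilin. NOD-like receptors sit in the cytosol, where Nod1 and Nod2 bind fragments of peptidoglycan, the NAIP proteins and some NLRP proteins trigger inflammasomes, and others dampen signaling. In the lung these genes are known from macrophages, monocytes, neutrophils, dendritic cells and B cells, and several are also used by epithelial and endothelial cells.

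The libraries were first compared with their labels. The summed level of 6 alveolar type 2 markers was at least 12760 FPKM, so that every library held lung RNA. The first sham library stood apart, with this lowest sum against 16790 to 20190 FPKM in the other 9, and with values above 0 for 25486 genes against 22475 to 23575. Sex-linked genes separated the groups completely. Xist was at 26.8 to 43.2 FPKM in IPF lungs and at 0.0301 to 0.0767 in sham lungs, and the Y-linked genes Ddx3y, Eif2s3y, Kdm5d and Uty were at 0 in all 5 IPF lungs, while Ddx3y was at 14.3 to 21.4 FPKM in sham lungs. Sex and operation therefore cannot be told apart in any comparison of these 10 libraries, although the methods describe pups of both sexes. All 7 clock genes examined also passed the test, 2 higher and 5 lower in IPF lungs, and none overlapped between the groups. Dbp was at 1.74 to 3.49 FPKM in IPF and 23.2 to 29.3 in sham lungs. Any part of collection time in the results was not tested, and it cannot be told apart from the operation either.

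Of the receptors, 3 passed the test, an adjusted p under 0.05 in a limma fit of log2(FPKM + 0.1) over all 20448 genes tested. Tlr1 and Tlr3 were higher in IPF lungs, and Tlr12 was lower. Of the 24 tested receptors this was 12.5%, and 5.85% of all genes tested passed (1196 genes). In the higher direction 2 receptors passed against a background of 3.71%, and in the lower direction 1 against 2.14%. With the study's further limit of an absolute log2 fold change above 1, 0 receptors and 1.14% of all genes passed. Counting unadjusted p values under 0.05 gave 8 receptors (33.3%) and 19.5% of all genes. All fold changes were computed on log2(FPKM + 0.1), and the added 0.1 pulls those of scarce transcripts toward 0.

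**Figure D1:**
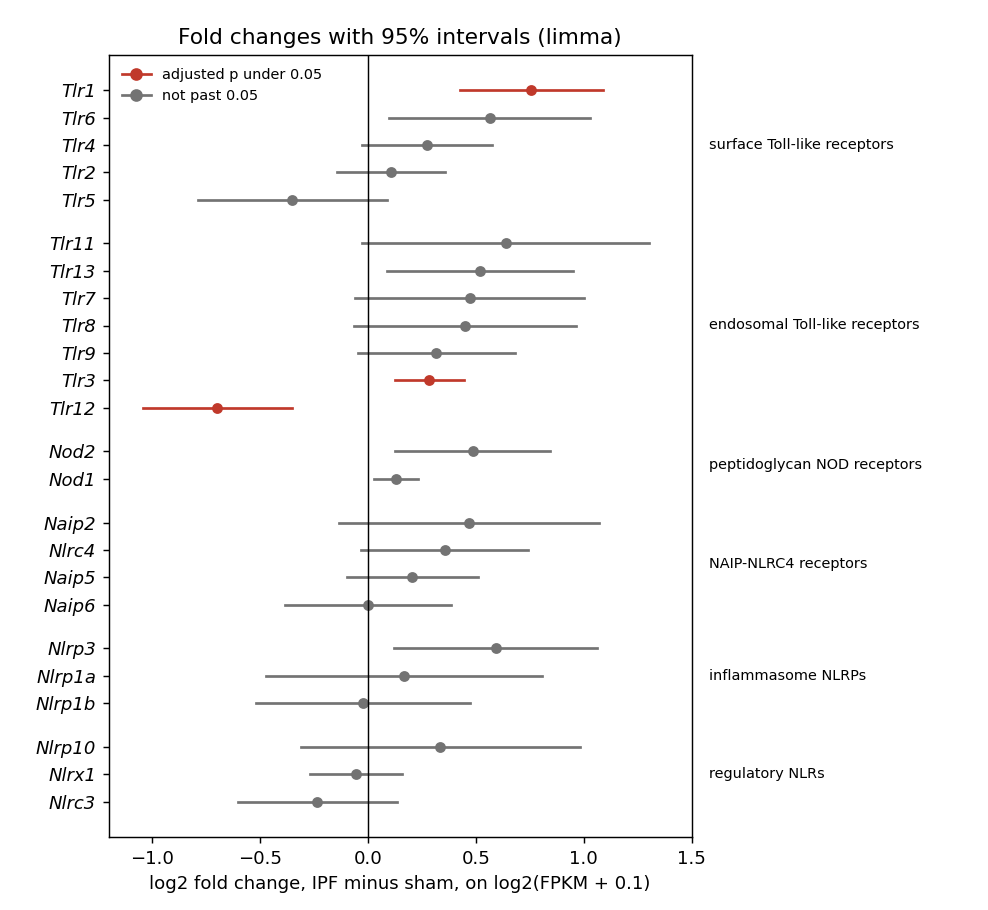
Log2 fold change of IPF over sham on the log2(FPKM + 0.1) scale (x axis) for the 24 tested receptors, grouped by role (y axis), as points with lines for the 95% confidence interval and in red where the adjusted p was under 0.05. Tlr1 at 0.76 and Tlr3 at 0.29 lie to the right of 0, Tlr12 at -0.70 lies to the left, and 19 of the 24 points are above 0.

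As the plot of fold changes shows, 19 of the 24 estimates were positive (79.2%), whereas 50.4% of all genes tested were. The median log2 fold change of the 24 was 0.30, and that of all genes was 0.0016. By role, the median was 0.28 for the 5 surface Toll-like receptors, 0.45 for the 7 endosomal ones, 0.31 for Nod1 and Nod2, and 0.28 for the 4 tested genes of the NAIP-NLRC4 group. It was 0.17 for the 3 tested inflammasome NLRPs and -0.05 for the 3 tested regulatory receptors. The IPF and sham values did not overlap for 4 receptors (16.7%, background 7.29%), namely Tlr1, Tlr3 and Nod1 above sham (3 genes, background 4.52%) and Tlr12 below (1 gene, background 2.77%).

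The promoters of the 3 receptors that passed, and of Tlr6 as the closest relative of Tlr1, are shown because their transcripts are the ones the comparison turns on. Sequences are from RefSeq (GRCm38.p6, the build of the table's positions), which had an entry for 34 of the 38 receptors. They run 5′ to 3′ along the gene, from 250 bases before to 50 bases after the start of transcription, and capitals mark the matches to 6 motifs that were searched on both strands. Tlr1 has 2 entries, at chr5:64933509-64933808 and chr5:64932650-64932949, Tlr6 is shown by the first of its entries, at chr5:64959117-64959416, Tlr3 lies at chr8:45410331-45410630 and Tlr12 at chr4:128618570-128618869, all on the minus strand.
Tlr1, first start: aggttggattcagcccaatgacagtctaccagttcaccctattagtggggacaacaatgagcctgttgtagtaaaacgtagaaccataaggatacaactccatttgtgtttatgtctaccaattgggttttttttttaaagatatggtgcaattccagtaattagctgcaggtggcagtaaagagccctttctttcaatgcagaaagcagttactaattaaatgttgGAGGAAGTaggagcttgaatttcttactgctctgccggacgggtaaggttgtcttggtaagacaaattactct
Tlr1, second start: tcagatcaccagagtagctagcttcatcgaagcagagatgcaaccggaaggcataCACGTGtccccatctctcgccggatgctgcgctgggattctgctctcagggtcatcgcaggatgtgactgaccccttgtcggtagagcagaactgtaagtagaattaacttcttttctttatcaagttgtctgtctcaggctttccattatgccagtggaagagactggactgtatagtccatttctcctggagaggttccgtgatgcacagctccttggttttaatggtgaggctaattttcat
Tlr6, first start: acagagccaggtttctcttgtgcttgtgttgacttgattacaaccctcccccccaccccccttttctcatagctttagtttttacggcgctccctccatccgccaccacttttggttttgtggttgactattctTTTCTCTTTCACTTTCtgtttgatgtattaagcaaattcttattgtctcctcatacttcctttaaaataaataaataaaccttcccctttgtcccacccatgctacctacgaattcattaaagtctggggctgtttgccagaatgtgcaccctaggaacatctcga
Tlr3: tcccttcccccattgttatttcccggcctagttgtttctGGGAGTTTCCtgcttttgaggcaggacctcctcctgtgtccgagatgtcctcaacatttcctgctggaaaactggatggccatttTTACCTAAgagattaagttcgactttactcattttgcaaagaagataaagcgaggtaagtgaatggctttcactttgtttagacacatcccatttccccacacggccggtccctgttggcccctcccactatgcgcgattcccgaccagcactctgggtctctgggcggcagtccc
Tlr12: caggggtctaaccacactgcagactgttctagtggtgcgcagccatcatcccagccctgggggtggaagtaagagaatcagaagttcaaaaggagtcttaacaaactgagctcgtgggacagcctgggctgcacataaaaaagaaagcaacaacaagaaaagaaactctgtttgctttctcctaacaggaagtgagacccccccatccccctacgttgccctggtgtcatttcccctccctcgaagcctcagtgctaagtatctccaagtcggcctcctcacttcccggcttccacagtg

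The capitals in the first Tlr1 window mark a PU.1 motif (GAGGAAGT) at position -23 from the start, a motif that 3.20% of 32851 promoters hold. This motif stood in 5 of the 27 promoter entries of tested receptors, those of Tlr1, Tlr9, Tlr11, Nlrp1a and Nlrp1b. The second Tlr1 window holds an E-box (CACGTG), found in 7.15% of promoters and in 1 of the 27 entries. In Tlr6 the capitals cover 2 overlapping matches to the interferon-stimulated response element (GAAA, any 2 bases, GAAA, here on the opposite strand), which 3.44% of promoters hold and which also stood in Tlr11. The other Tlr6 entry, at chr5:64959999-64960298, held none of the 6 motifs. The Tlr3 window holds an NF-kB motif, found in 8.46% of promoters and also in Tlr2, Naip5 and Nlrp3, and a D-box (TTANGTAA), found in 2.32% and also in Nlrc4. The window of Tlr12 held none of the 6, the last of which was AP-1 (TGANTCA, 7.81% of promoters, 1 of the 27 entries). PU.1 is a transcription factor of myeloid and B cells, and the D-box and E-box are bound by clock factors among others. A match is a description of these letters alone.

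Tlr1 (ENSMUSG00000044827, chromosome 5, 64924679 to 64933563, minus strand) pairs with Tlr2 to bind triacylated lipopeptides. It was at 1.61, 1.6, 1.34, 1.57 and 1.18 FPKM in IPF mice 1 to 5 and at 1.05, 0.867, 0.875, 0.646 and 0.706 FPKM in sham mice 1 to 5. The lowest IPF value stood above the highest sham value. The means were 1.46 ± 0.191 FPKM in IPF lungs and 0.829 ± 0.160 in sham lungs (SD, n = 5 each), for a log2 fold change of 0.76 (SE 0.151) and a fold of 1.69. The adjusted p was 0.0140, and the two-sided exact permutation test gave p = 0.00794, the smallest that 5 against 5 mice allow. The values rested on 70 to 96 reads per IPF library and 36 to 58 per sham library. Tlr1 passed in all 10 fits that left out 1 mouse and in all 11 other settings tried, with adjusted p from 0.00359 to 0.0423. The coding sequences of Tlr1 and Tlr6 are alike, and 603 of the 3018 words of 31 bases in the Tlr1 transcript also occurred in Tlr6, so reads on those stretches may have been placed on either gene.

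Markers of several leukocytes moved in the same direction. In whole lung, more cells of a type and more RNA per cell cannot be told apart. Of 8 B cell markers, 6 rose, among them Ms4a1 and Cd79a, and the summed level was 35.5 to 53.6 FPKM in IPF and 19.5 to 31.7 in sham lungs. Of 8 natural killer cell markers 5 rose (sums 12.9 to 20.2 and 4.59 to 10.2 FPKM). Of 8 monocyte markers 4 rose, including Ly6c2 and Plac8, and 1 had a negative estimate, of -0.28. The monocyte sums overlapped at 268 to 429 FPKM in IPF and 337 to 376 in sham lungs. Their median was lower in IPF lungs, at 332 FPKM against 354. All 8 neutrophil markers had positive estimates, from 0.83 to 1.46 with a median of 1.00 on the log2 scale, and 2 did not overlap between the groups, but 0 passed. No defining marker of these 4 lists was at 0 in all mice. The part of these cells in the receptor values was not tested.

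Tlr6, which also pairs with Tlr2 and binds diacylated lipopeptides, was at 0.717 ± 0.110 FPKM in IPF and 0.468 ± 0.172 in sham lungs. Its log2 fold change of 0.56 (SE 0.213) did not pass, with an adjusted p of 0.162. Sham mouse 5, at 0.721 FPKM, lay above 4 of the 5 IPF mice, and the other 4 sham mice lay below all of them. The ratio of Tlr1 to Tlr6 was 1.72 to 2.42 in IPF and 0.978 to 2.41 in sham lungs, so the ratio overlapped between the groups.

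The shared partner Tlr2 was the most abundant surface receptor and did not pass. It was at 5.89, 5.55, 6.25, 6.70 and 6.08 FPKM in IPF mice and 4.57, 5.77, 5.41, 5.32 and 7.46 in sham mice. Sham mouse 5 was the highest of all 10 and sham mouse 1 the lowest, so the sham values spanned the whole IPF range. The log2 fold change was 0.11 (SE 0.114), with a 95% confidence interval of -0.14 to 0.36 and an adjusted p of 0.652.

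Tlr4, the receptor for lipopolysaccharide, was at 3.58, 3.52, 3.83, 5.38 and 4.53 FPKM in IPF mice and 2.95, 3.16, 3.34, 3.24 and 4.37 in sham mice. The groups overlapped through sham mouse 5 alone, which exceeded 3 IPF mice. At 0.28 (SE 0.137), the log2 fold change did not pass (adjusted p = 0.300).

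For Tlr5, the flagellin receptor, the estimate was the only negative one among the surface receptors. Its level was 1.19, 1.30, 1.70, 1.29 and 1.06 FPKM in IPF mice and 2.31, 1.47, 1.44, 1.17 and 2.30 in sham mice. Sham mice 1 and 5 stood above all the rest, and the remaining sham mice lay within the IPF range. Its log2 fold change was -0.35 (SE 0.199), with an adjusted p of 0.373.

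**Figure D2:**
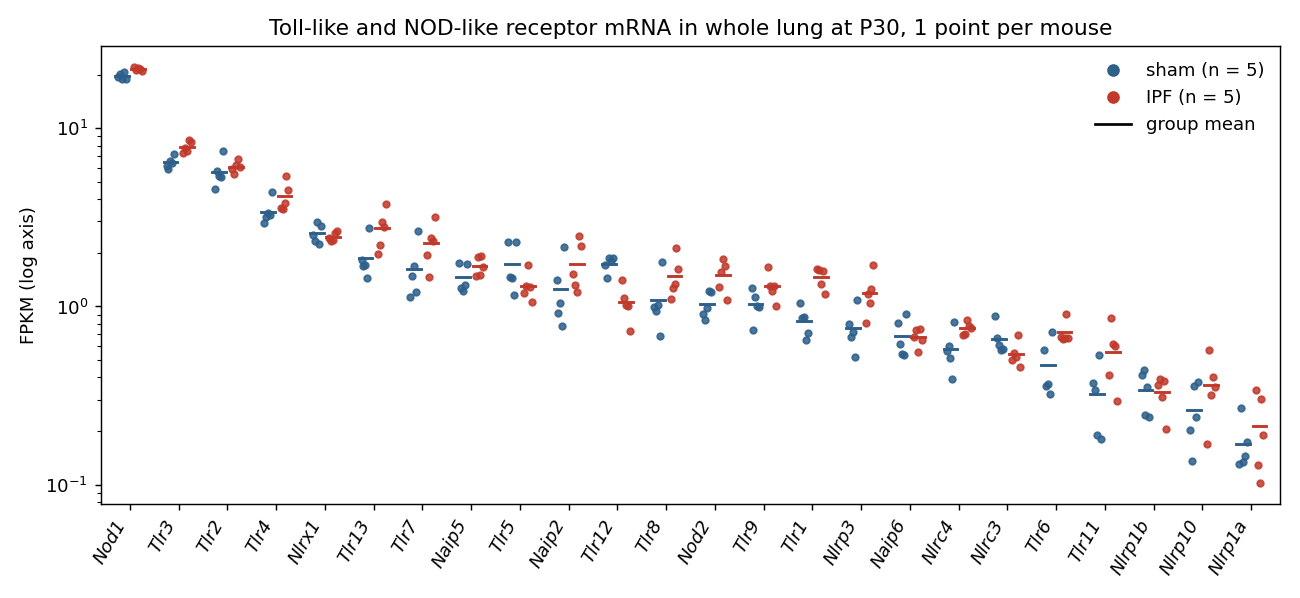
FPKM on a log axis (y axis) of the 24 tested receptors in order of their mean level (x axis), with 1 point per mouse, blue for sham and red for IPF (n = 5 each), and a bar for each group mean. Nod1 lies above all others, and the red and blue points do not overlap for Tlr1, Tlr3, Tlr12 and Nod1.

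Tlr3 (ENSMUSG00000031639, chromosome 8, 45395665 to 45411080, minus strand) is the endosomal receptor for double-stranded RNA, and signals through Ticam1 and not Myd88. It was at 7.23, 7.75, 7.43, 8.61 and 8.36 FPKM in IPF mice 1 to 5 and 6.17, 5.92, 6.54, 6.39 and 7.19 in sham mice. Every IPF value exceeded every sham value, but IPF mouse 1, at 7.23, and sham mouse 5, at 7.19, nearly met. Group means were 7.88 ± 0.591 FPKM in IPF lungs and 6.44 ± 0.478 in sham lungs (SD, 5 mice each), with a log2 fold change of 0.29 (SE 0.0726), a fold of 1.22 and an adjusted p of 0.0418. With 641 to 817 reads per IPF library and 530 to 571 per sham library, Tlr3 had the second highest mean level of the 38 receptors, although its range over the 10 mice overlapped that of Tlr2.

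The Tlr3 call lay close to the threshold. Leaving out a single mouse gave an adjusted p of 0.0843 without IPF mouse 2, 0.108 without IPF 4, 0.0660 without IPF 5, 0.0785 without sham 1, 0.0993 without sham 2, 0.0822 without sham 3 and 0.0848 without sham 4. It stayed under the threshold without IPF 1, IPF 3 or sham 5. The adjusted p was 0.0571 with no filter on level, 0.0702 with no variance trend and 0.0508 after quantile normalization. The log2 fold change lay between 0.25 and 0.33 in the fits that left out 1 mouse. A gene on the opposite strand, Gm45542, overlaps Tlr3, and with no statement that counting used strand their reads cannot be separated.

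Tlr12 (ENSMUSG00000062545, chromosome 4, 128615443 to 128618619, minus strand) binds profilin of protozoa together with Tlr11 in the mouse. It was at 1.41, 1.11, 1.02, 1.00 and 0.729 FPKM in IPF mice 1 to 5 and 1.72, 1.44, 1.88, 1.79 and 1.88 in sham mice. All IPF mice lay below all sham mice, with IPF mouse 5 the lowest and IPF mouse 1 just under sham mouse 2. The means were 1.05 ± 0.243 FPKM in IPF lungs and 1.74 ± 0.182 in sham lungs (SD, n = 5 each), for a log2 fold change of -0.70 (SE 0.157), a fold of 0.617 and an adjusted p of 0.0244. These values rested on 41 to 76 reads per IPF library and 82 to 96 per sham library. The adjusted p was 0.0599 without IPF mouse 4, 0.0643 without sham 3, 0.0575 without sham 4 and 0.0565 without sham 5, and it stayed under the threshold without any 1 of the remaining 6 mice (0.0484 without sham 1). In the 4 fits without a call the log2 fold change was -0.67 to -0.69. No 31-base word of its transcript occurred in another gene, and no gene of the table overlapped it.

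Its partner Tlr11 had an estimate of the opposite sign. Tlr11 was at 0.557 ± 0.217 FPKM in IPF and 0.323 ± 0.145 in sham lungs, on only 9 to 47 reads per library, and its log2 fold change of 0.64 (SE 0.303) did not pass (adjusted p = 0.275). The ratio of Tlr11 to Tlr12 was 0.294 to 0.773 in IPF lungs, with a median of 0.602, and 0.0960 to 0.296 in sham lungs, with a median of 0.216. The 2 ranges met at IPF mouse 1 and sham mouse 4. Plasmacytoid dendritic cells are known to express Tlr12, together with Tlr7 and Tlr9. Of 8 markers of these cells, 2 rose, Spib and Bst2, and 0 fell. Their summed level, to which Bst2 gave most, was 177 to 197 FPKM in IPF and 101 to 157 in sham lungs. This sum therefore mainly follows a single gene, and the part of these cells in the receptor values was not tested.

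Tlr7, Tlr8 and Tlr13 lie on the X chromosome, and their estimates were 0.47, 0.45 and 0.52 on the log2 scale. None passed, and the sex-linked genes above separated the same 2 groups. Tlr7, which binds single-stranded RNA, was at 1.94, 1.47, 2.44, 2.34 and 3.17 FPKM in IPF mice and 1.13, 1.49, 1.69, 1.21 and 2.65 in sham mice. The sham group reached 2.65 in mouse 5, above 4 of the 5 IPF mice, and the adjusted p was 0.315. Tlr8, the neighbor of Tlr7 on the chromosome and also a receptor for RNA products, was at 1.10, 1.27, 1.34, 2.13 and 1.62 FPKM in IPF mice and 0.998, 0.949, 1.02, 0.686 and 1.77 in sham mice. Again sham mouse 5 exceeded 4 IPF mice, and the adjusted p was 0.323. Tlr13, which in mice binds bacterial ribosomal RNA, was at 1.98, 2.22, 2.99, 2.78 and 3.77 FPKM in IPF mice and 1.82, 1.70, 1.71, 1.44 and 2.76 in sham mice. Apart from sham mouse 5, every sham value was below every IPF value, and the adjusted p was 0.165. Without sham mouse 5 the log2 fold change of Tlr13 was 0.66 with an adjusted p of 0.0632.

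Tlr9, the receptor for unmethylated CpG DNA, was at 1.67, 1.31, 1.22, 1.31 and 1.01 FPKM in IPF mice and 1.27, 0.738, 1.13, 1.00 and 0.999 in sham mice. IPF mice 1, 2 and 4 lay above all sham mice, and, as for Tlr1, IPF mouse 1 was the highest and IPF mouse 5 the lowest of its group. The estimate was 0.32 (SE 0.165) on the log2 scale, with an adjusted p of 0.325.

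Nod1 (ENSMUSG00000038058, chromosome 6, 54923949 to 54972612, minus strand) detects peptidoglycan fragments with diaminopimelic acid and is used by many cell types. At a mean of 20.6 FPKM it had the highest level of all 38 receptors, and its range over the 10 mice did not overlap that of the next, Tlr3. It was at 22.2, 21.2, 21.7, 21.5 and 21.0 FPKM in IPF mice and 19.5, 20.2, 18.9, 20.8 and 18.9 in sham mice. The groups did not overlap, with an exact permutation p of 0.00794, but the shift was small, with a fold of 1.09. The log2 fold change was 0.13 (SE 0.0464), with a 95% confidence interval of 0.03 to 0.23 and an adjusted p of 0.143, so Nod1 did not pass. Its spread was narrow, with a coefficient of variation of 2.12% in IPF and 4.19% in sham mice, on 1467 to 2084 reads.

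Nod2, the muramyl dipeptide receptor known from monocytes and neutrophils, was at 1.29, 1.55, 1.85, 1.69 and 1.09 FPKM in IPF mice and 0.907, 0.845, 0.981, 1.22 and 1.20 in sham mice. IPF mice 1 to 4 lay above all sham mice, and IPF mouse 5 lay within the sham range. Its estimate was 0.49 (SE 0.163) on the log2 scale, with an adjusted p of 0.118. It passed only without IPF mouse 5, at 0.58 and an adjusted p of 0.0443. That mouse stood apart in neutrophil markers, whose summed level was 307 FPKM in it, 54.8 to 77.6 in the other IPF mice and 16.4 to 74.3 in sham mice. The part of neutrophils in the receptor values was not tested.

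**Figure D3:**
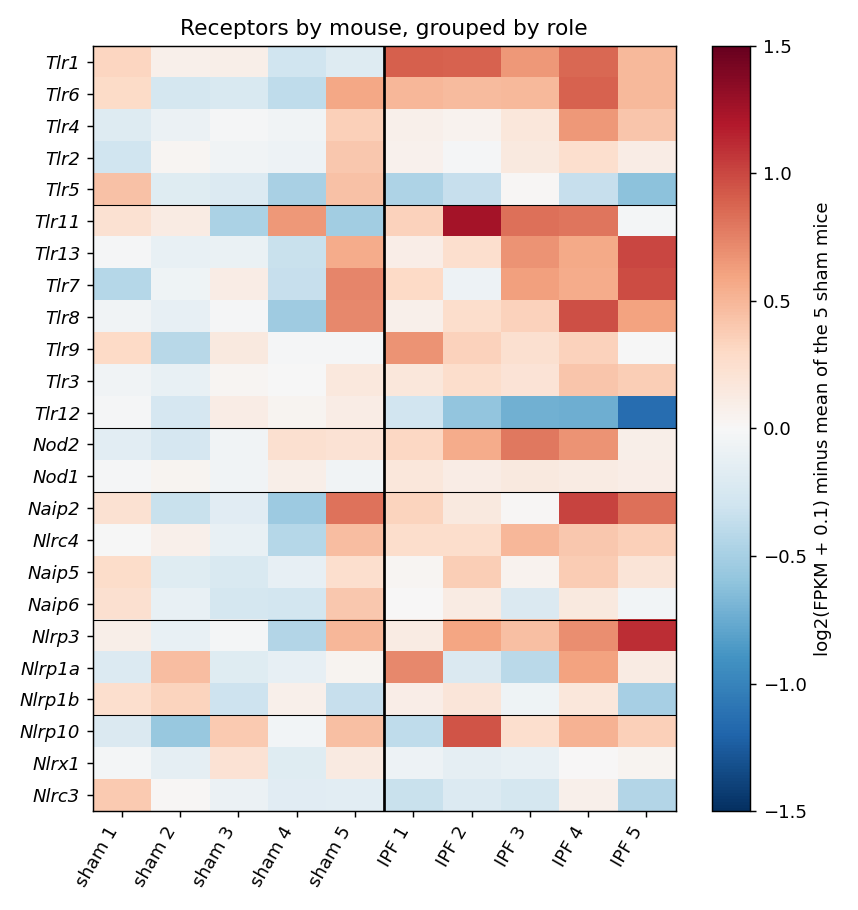
Log2(FPKM + 0.1) minus the mean of the 5 sham mice (color, red above and blue below) for the 24 tested receptors (rows, grouped by role) in each mouse (columns, sham 1 to 5 and then IPF 1 to 5). Sham mouse 5 has the highest sham value in 12 of the 24 rows and sham mouse 4 the lowest in 11, and Tlr12 is blue in all 5 IPF mice.

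The NAIP proteins bind bacterial flagellin and secretion system parts and activate Nlrc4, which recruits caspase-1. None of the 4 tested genes of this group passed. Naip5, for flagellin, was at 1.48, 1.89, 1.5, 1.91 and 1.66 FPKM in IPF mice and 1.76, 1.26, 1.22, 1.31 and 1.74 in sham mice, and its groups overlapped, with an estimate of 0.21 (SE 0.138) and an adjusted p of 0.453. Naip2, for the rod protein of the secretion system, was at 1.51, 1.32, 1.20, 2.49 and 2.18 FPKM in IPF mice and 1.40, 0.921, 1.04, 0.781 and 2.15 in sham mice. It was highest in IPF mice 4 and 5 and sham mouse 5, with a log2 fold change of 0.47 (SE 0.274) and an adjusted p of 0.383. Naip6 was at 0.672 ± 0.0771 and 0.682 ± 0.17 FPKM, with an estimate of 0.0026, and Nlrc4 at 0.753 ± 0.0598 and 0.578 ± 0.155 FPKM, with an estimate of 0.36 (SE 0.176) and an adjusted p of 0.295. Naip1 was under the filter, on 0 to 4 reads per library. The Naip genes stand side by side on chromosome 13, and 53.4% of the 31-base words of Naip5, 35.2% of Naip6 and 25.0% of Naip2 occurred in other genes, mainly of the Naip family, so how their reads were divided is uncertain. For Nlrc4 the share was 18.5%, mostly with the gene Slc30a6.

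Among the NLRPs that build inflammasomes, Nlrp3, which responds to potassium efflux and many danger signals, had the largest estimate. It was at 1.20 ± 0.328 FPKM in IPF and 0.758 ± 0.208 in sham lungs, a log2 fold change of 0.59 (SE 0.213) with an adjusted p of 0.145. The lowest IPF mouse, at 0.811, lay above 4 of the 5 sham mice, and sham mouse 5 was at 1.08. Nlrp1b, the anthrax lethal factor sensor, was at 0.331 ± 0.0762 and 0.339 ± 0.0933 FPKM with an estimate of -0.02 (SE 0.226), and Nlrp1a was at 0.213 ± 0.105 and 0.17 ± 0.0570 FPKM with an estimate of 0.17 (SE 0.290). Neither passed, with adjusted p of 0.976 and 0.808, and 11.9% of the words of Nlrp1a were shared with related genes. Nlrp6, known from gut epithelium, was under the filter, on 2 to 8 reads in IPF and 1 to 11 in sham libraries.

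The regulatory receptors gave no call. Nlrx1, a mitochondrial receptor, was at 2.42, 2.34, 2.37, 2.58 and 2.64 FPKM in IPF mice and 2.51, 2.34, 2.99, 2.25 and 2.83 in sham mice. The IPF values lay wholly within the sham range, with a log2 fold change of -0.05 (SE 0.0964) and a 95% confidence interval of -0.27 to 0.16. Nlrc3, known from lymphocytes as an inhibitor of signaling, was at 0.544 ± 0.0893 and 0.660 ± 0.131 FPKM, with an estimate of -0.23 (SE 0.168) and an adjusted p of 0.493. Nlrp10, which lacks the leucine-rich repeats of its relatives, was at 0.363 ± 0.146 and 0.263 ± 0.104 FPKM, with an estimate of 0.34 (SE 0.294) and an adjusted p of 0.584. Nlrp12, a gene of neutrophils and monocytes, was under the filter at 0.124 ± 0.1 and 0.0536 ± 0.0258 FPKM. Its highest value, 0.300 FPKM on 40 reads, was in IPF mouse 5, the mouse with the highest neutrophil sum.

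The other 11 Nlrp genes, several of which are known from oocytes and early embryos, were at or near 0. Nlrp2, Nlrp4a, Nlrp4c, Nlrp4e, Nlrp5, Nlrp9a, Nlrp9b, Nlrp9c and Nlrp14 were at 0 in all 10 libraries. Nlrp4f had at most 3 reads, in IPF libraries alone, and Nlrp4b had 1 read, in a sham library. No difference was detectable for these genes at this depth. The oocyte marker Figla was also at 0 throughout, and the summed level of 7 oocyte markers was 0.330 to 1.09 FPKM.

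**Figure D4:**
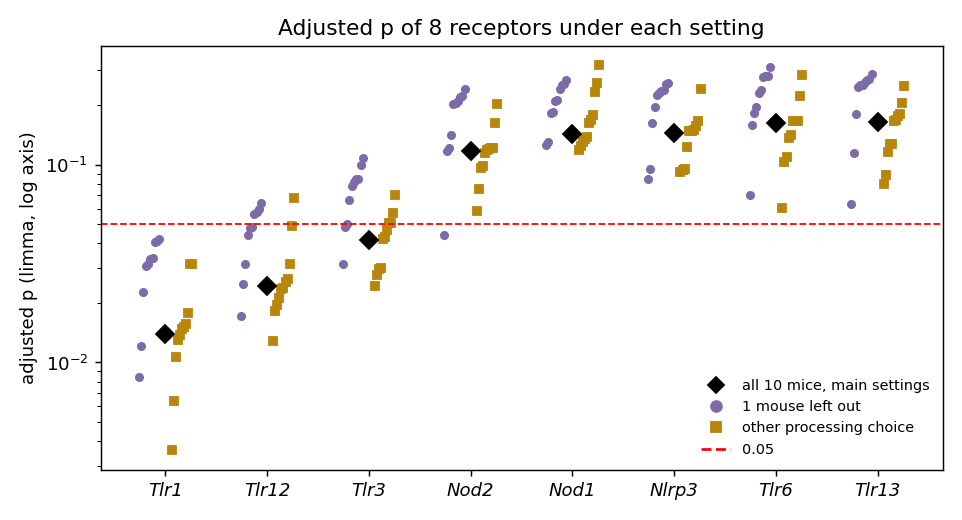
Adjusted p of the limma fit on a log axis (y axis) for the 8 receptors with an unadjusted p under 0.05 (x axis), with a diamond for all 10 mice, circles for the 10 fits that leave out 1 mouse, squares for the other processing choices and a dashed line at 0.05. Tlr1 stays below the line throughout, Tlr12 in 6 and Tlr3 in 3 of the 10 circles, and Nod2 crosses it once, without IPF mouse 5.

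Levels were spread in a similar order of mice for several receptors. In the sham group, mouse 5 had the highest value for 12 of the 24 tested receptors and mouse 4 the lowest for 11. In the IPF group, mouse 4 had the highest value for 9, and mouse 5 had the lowest for 9, Tlr1, Tlr9, Tlr12 and Nod1 among them, but the highest for Tlr7, Tlr13 and Nlrp3. Sham mouse 5 also had the highest sham sums of alveolar macrophage markers (423 FPKM, against 245 to 327 in the other sham mice) and neutrophil markers. In the IPF group the alveolar macrophage sum was 455 FPKM in mouse 4 and 449 FPKM in mouse 5, against 270 to 304 in the other IPF mice, so that the mouse with the most highest values and the mouse with the most lowest values both had a high sum. The coefficient of variation was widest in sham mice for Tlr11 (45.0%) and Naip2 (43.6%), where sampling of reads alone would give a median of 22.4% and 11.1%.

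By level, 15 receptors reached a mean of 1 FPKM. After Nod1 came Tlr3, Tlr2, Tlr4, Nlrx1, Tlr13, Tlr7, Naip5, Tlr5, Naip2, Tlr12, Tlr8, Nod2, Tlr9 and Tlr1, with means from 7.16 down to 1.15 FPKM, a scale that corrects for gene length. Among these 14, the ranges over the 10 mice of each neighboring pair overlapped, so their order is not resolved by single steps.

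The partners of the receptors were then examined in 7 lists of 81 genes written from general knowledge, of which 80 were tested. Of these, 8 rose and 0 fell at an adjusted p under 0.05, beside 3.71% and 2.14% of all genes tested. Of the 80 estimates 58 were positive, beside 50.4% of all genes, and the median log2 fold change was 0.12, beside 0.0016. Among 13 accessory proteins 3 rose. Cd180, a surface relative of Tlr4 on B cells, was at 2.35 ± 0.243 FPKM in IPF lungs and 1.27 ± 0.210 in sham lungs, a log2 fold change of 0.84 (SE 0.129) with an adjusted p of 0.00378. Ly96, which holds lipopolysaccharide for Tlr4, rose by 0.58 (SE 0.148) with an adjusted p of 0.0408, and Unc93b1, which carries the nucleic acid receptors to endosomes, by 0.37 (SE 0.0916) with an adjusted p of 0.0394.

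Of 6 adaptors with TIR or related domains, Myd88, used by nearly all Toll-like receptors, passed. It was at 17.2, 16.6, 18.1, 16.7 and 16.9 FPKM in IPF mice and 13.8, 14.3, 14.1, 15.7 and 14.6 in sham mice. The groups did not overlap, and the log2 fold change was 0.24 (SE 0.0510) with an adjusted p of 0.0198. Of 10 NF-kB subunits and inhibitors, Relb rose by 0.48 (SE 0.0941) on the log2 scale with an adjusted p of 0.0127, and Bcl3 by 0.68 (SE 0.139) with an adjusted p of 0.0155. Of 15 inflammasome partners and products, the interferon-induced GTPase Gbp5 rose by 0.88 (SE 0.116) with an adjusted p of 0.00188. The inflammasome protease Casp1 rose by 0.49 (SE 0.124) with an adjusted p of 0.0406.

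None of the 17 kinases and ligases passed, with estimates from -0.25 to 0.15 and a median of -0.05. The 10 negative regulators (median 0.03) and the 9 tested genes of the NOD pathway (median 0.02) also gave 0 calls. Without sham mouse 1, 5 of the 8 pathway genes passed (Myd88, Relb, Bcl3, Gbp5 and Cd180). Without sham mouse 4 or IPF mouse 4, 5 pathway genes rose, and without IPF mouse 5, 12 rose and 3 fell.

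**Figure D5:**
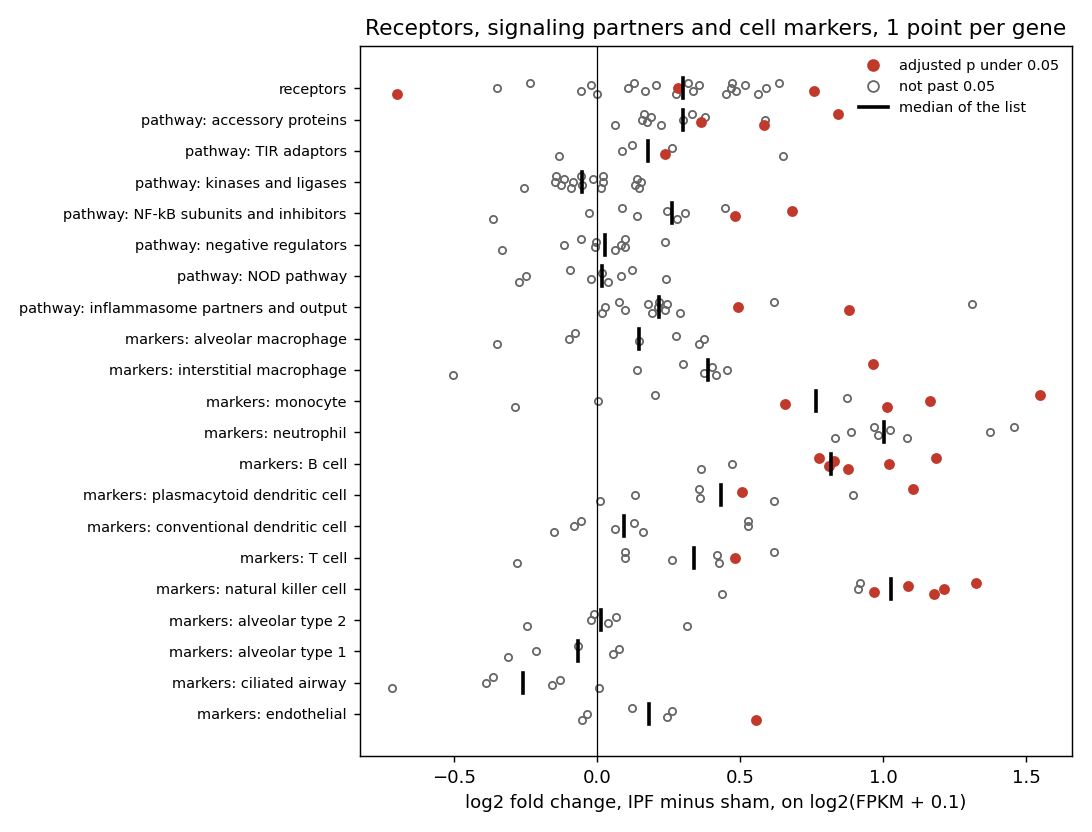
Log2 fold change of IPF over sham on the log2(FPKM + 0.1) scale (x axis) for the tested receptors, pathway lists and cell type marker lists (y axis), with 1 point per gene, filled where the adjusted p was under 0.05, and a bar for the median of each list. The receptor median lies at 0.30, and the B cell and natural killer cell medians lie at 0.82 and 1.03.

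The remaining marker lists gave at most 1 call each. Of 8 interstitial macrophage markers 1 rose, Cx3cr1, which monocytes also express, and 7 of the 8 estimates were positive. Their sums overlapped at 215 to 358 FPKM in IPF and 297 to 346 in sham lungs. Apart from IPF mouse 5, at 358 FPKM, every IPF sum lay below every sham sum. Of 8 T cell markers Cd4 rose. Of 6 endothelial markers Cldn5 rose, 2 did not overlap between the groups, and the sums did not overlap either, at 1163 to 1339 FPKM in IPF and 1039 to 1092 in sham lungs. The part of endothelial cells in the receptor values was not tested. None of 7 alveolar macrophage, 8 conventional dendritic cell, 6 alveolar type 2, 5 alveolar type 1 and 6 ciliated cell markers passed. The medians of these 5 lists lay between -0.26 and 0.15.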

How the data were processed

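mRNA of whole lungs was sequenced from 5 IPF and 5 sham mice. Per the methods, trimming used Fastp, alignment HISAT2 and quantification StringTie. The authors deposited the result as FPKM, with a row per gene and a column per lung. The methods name GRCm39, but the last gene of chromosome 1 ends at 195323493, beyond that build, and all 38 receptors matched positions in RefSeq GRCm38.p6. The submitters' processing notes list GRCm38, mm10, hg38 and Bowtie 0.12.2, without their roles. The methods name the KAPA mRNA HyperPrep kit and the labels NEBNext Ultra.

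Groups were taken from the sample labels, and p-values cover the spread between these mice. Genes with a mean of at least 0.1 FPKM were fitted by a linear model of log2(FPKM + 0.1) on the group in limma 3.58.1 (R 4.3.3), moderated by trended empirical Bayes. No covariate was used, and adjustment was by Benjamini-Hochberg across every gene fitted. The study's DESeq2 needs counts and was not used. The fit was tested on simulated data. Exact permutation tests over 5 of 10 mice were two-sided. The number of reads behind each value, 15483046 to 19026843 per library in all, was recovered from the steps of the FPKM values, where 100% of values below 1000 reads were whole within 0.02, and served for a limma voom alternative. The alternatives are given in the closing section. Shared 31-base words were counted in GENCODE vM39 transcripts. Other steps used Python 3.11.15 (pandas 2.3.3, numpy 2.4.6, SciPy 1.17.1).

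The receptors and gene lists were chosen with earlier results of these data known. Receptors with an adjusted p under 0.05 or a mean of at least 1 FPKM are given in every mouse, those from 0.1 to 1 FPKM by group, and those below by reads. Of the other lists, at most 4 genes with the smallest p among those that passed are named. Tlcd4 was not in the table under that name, and Slc46a2 was under the filter.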

Additional observations from a re-analysis of the deposited data

Results flagged for a closer look

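In the groups of 5 mice, the gap of the highest or lowest value to its neighbor was set against Dixon's 95% critical value of 0.71. This picked out 3 of the 48 groups of tested receptors, and chance alone picks about 1 in 20. Tlr4 in sham mouse 5 was at 4.367 FPKM, with the next sham mouse at 3.341. Tlr13 was at 2.758 FPKM in the same mouse, with the next at 1.818. Tlr6 in IPF mouse 4 was at 0.9128 FPKM, with the next IPF mouse at 0.6778.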

How the results depend on the processing

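Tlr1 passed in every refit and missed only the fold limit, whereas Tlr3 and Tlr12 lost their calls in some refits. Receptors that rose numbered 1 in place of 2 with no filter, with no variance trend, after quantile normalization and with the replicate block, and 1 to 2 when 1 mouse was left out. Receptors that fell numbered 0 with the replicate block and 0 to 1 with 1 mouse left out. With the fold limit, 0 receptors rose, 0 fell, 0 pathway genes rose and 233 genes passed in all. With an adjusted p under 0.1, 1892 genes passed, and 13 pathway genes rose and 2 fell. Pathway genes that rose numbered 13 with array weights, 5 with no filter and 4 with no variance trend, and 5 to 12 with 1 mouse left out. Those that fell numbered 3 with array weights, 2 after quantile normalization, 2 with voom on the recovered reads, 1 with a mean of at least 1 FPKM and 1 with protein-coding genes alone, and 0 to 3 with 1 mouse left out. Over all genes, 775 (without IPF mouse 4) to 1620 (without IPF mouse 5) passed with 1 mouse left out, and 1464 with voom. The cause of these shifts was not tested. The log2 fold change of Naip6 was -0.0028 with median-of-ratios scaling, -0.0037 with a pseudocount of 1 and -0.0649 to 0.1025 with 1 mouse left out, and that of Nlrp1b was 0.0324 with array weights, 0.0276 after quantile normalization and -0.1073 to 0.0967 with 1 mouse left out. Of the recomputed fold changes of the 24 receptors, 466 kept their direction and side of the threshold, 16 lost the call, 1 gained it and 12 changed sign.

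The replicate numbers of the labels do not pair the mice, since deviations of same-numbered mice correlated at -0.02 to 0.10. With the replicate block, 1045 genes passed, Tlr12 had an adjusted p of 0.068 and Tlr3 of 0.051. In sham mice, counting of reads alone would give a median coefficient of variation of 22.4% for Tlr11 and 31.6% for Nlrp1a, where 45.0% and 33.5% were measured.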

Other observations

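Nlrp5-ps, which the table does not class as protein-coding and which lies on chromosome 7, was read in every lung although Nlrp5 itself was at 0 in all 10. It was at 0.471 ± 0.123 FPKM in IPF and 0.302 ± 0.132 in sham lungs (SD, n = 5 each), on 11 to 42 reads per library, and the groups overlapped. Its log2 fold change was 0.53 (SE 0.272) with an adjusted p of 0.316. This gene was chosen after its values were seen. The other matched genes outside the protein-coding class, Naip3-ps1, Nlrp1c-ps, Nlrp4g, Naip3 and Nlrp4d, had means over all mice of 0 to 0.256 FPKM.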
